A study of Homo sapiens with 16 samples.

Results

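The genes described here are 33 ribosome biogenesis factors, nucleolar and ribosome assembly proteins, found by symbol among the 23575 gene symbols of the count table. They were measured by RNA sequencing in HL-60, a human promyelocytic leukaemia line with an amplified MYC gene, as undifferentiated cells (uHL-60) and as cells differentiated toward a neutrophil-like state (dHL-60). The stimulus was lipoteichoic acid (LTA), a cell wall polymer of Gram-positive bacteria, here from Staphylococcus aureus. The 12 dHL-60 libraries form 6 groups of 2, which are untreated cells, LTA at 1 µg/ml and LTA at 10 µg/ml, each at 4 h and at 24 h. The 4 uHL-60 libraries are single samples, untreated or with LTA at 1 µg/ml, at 4 h and at 24 h. All cells carry the genotype label WT, and no source used here gives the agent used for differentiation. The labels do not say whether the 2 libraries of a dHL-60 group are separate cultures, and p-values therefore cover only the scatter between them, which could be technical.

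Ribosomes are built in the nucleolus, where RNA polymerase I transcribes the ribosomal RNA precursor. Small nucleolar ribonucleoproteins (snoRNPs) of the box C/D class methylate that precursor and those of the box H/ACA class pseudouridylate it, while large assemblies fold, cut and export the small (40S) and large (60S) subunits. The transcription factor MYC is known to activate many of these genes, and granulocyte precursors are known to lower ribosome production as they mature. The members fall into 7 groups by role: 2 RNA polymerase I subunits, 3 box C/D and 4 box H/ACA core proteins, 3 nucleolar chaperones and scaffolds, 11 factors of the small subunit processome and 40S assembly, 7 of 60S assembly and 3 nucleolar regulators of ribosomal DNA transcription and growth.

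Promoters of the members are shown because the genes moved together and because MYC binds the E-box letters CACGTG. RefSeq (GRCh38.p14) gave promoters for 28 of the 33 members, as 34 windows of 300 bases, from 250 before to 50 after a transcription start. CACGTG, which reads the same on both strands, was in 17 of the 34 windows (50%), against 7.21% of 35082 other promoter windows. Counted by gene, 17 of the 28 members (60.7%) had a match, and no share by gene was taken for the others. The member windows held 18 matches, and 17 of them lay within 100 bases before to 50 after the start. In the stretches printed below, each from 100 bases before to 30 after the start and written along the gene, CACGTG is in capitals. Fibrillarin, UTP20, NAT10, RRP9 and WDR43 show matches close to the start, DDX21 and NOP10 are members whose RNA departed from the others in 1 or more comparisons, and nucleolin is an abundant member with no match in its window.
FBL, chr19:39846350-39846479, minus strand: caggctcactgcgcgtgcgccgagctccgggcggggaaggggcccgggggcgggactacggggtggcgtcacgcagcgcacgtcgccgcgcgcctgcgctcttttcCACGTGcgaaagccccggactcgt
UTP20, chr12:101280005-101280134, plus strand: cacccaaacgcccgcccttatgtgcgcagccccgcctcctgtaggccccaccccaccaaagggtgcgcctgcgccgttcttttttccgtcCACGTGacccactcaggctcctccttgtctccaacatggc
NAT10, chr11:34105529-34105658, plus strand: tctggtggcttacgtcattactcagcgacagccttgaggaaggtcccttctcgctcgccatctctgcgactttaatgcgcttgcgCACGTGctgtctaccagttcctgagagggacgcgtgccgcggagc
RRP9, chr3:51941875-51942004, minus strand: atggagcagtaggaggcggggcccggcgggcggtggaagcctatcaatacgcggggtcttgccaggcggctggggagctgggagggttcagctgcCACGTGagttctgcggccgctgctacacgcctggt
WDR43, chr2:28894567-28894696, plus strand: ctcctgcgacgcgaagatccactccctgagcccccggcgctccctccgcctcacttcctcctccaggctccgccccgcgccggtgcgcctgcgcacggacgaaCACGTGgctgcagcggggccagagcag
DDX21, chr10:68956547-68956676, plus strand: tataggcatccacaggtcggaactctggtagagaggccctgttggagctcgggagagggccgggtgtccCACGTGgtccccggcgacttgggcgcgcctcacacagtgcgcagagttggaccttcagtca
NOP10, chr15:34343107-34343236, minus strand: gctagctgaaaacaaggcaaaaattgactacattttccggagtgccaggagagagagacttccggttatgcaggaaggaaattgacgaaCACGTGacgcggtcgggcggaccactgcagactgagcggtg
NCL, chr2:231464455-231464584, minus strand: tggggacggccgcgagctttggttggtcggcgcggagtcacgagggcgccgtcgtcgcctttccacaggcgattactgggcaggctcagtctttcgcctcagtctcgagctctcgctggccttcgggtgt

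Counting from the start site, with the first transcribed base as position 1 and the base before it as -1, the capitals begin at position 7 in FBL, -10 in UTP20, -15 in NAT10, -5 in RRP9, 4 in WDR43, -31 in DDX21 and -11 in NOP10. NOP10 has another match at -170, outside the stretch shown. DDX21 has 2 windows in the table, and its other window, chr10:68955920-68956219, holds no CACGTG. Of the members with 2 windows, GAR1, LYAR and GNL3 likewise had a match in 1 of them, and NPM1 and POLR1B in 0. The other motifs, searched on both strands, were 3, and none of them contains CACGTG. The ETS-type letters CCGGAAG were in 29.4% of the member windows and 10.2% of the others. A palindromic element of 10 letters known from housekeeping gene promoters was in 2.94% and 0.422%, and the GC box GGGCGG in 67.6% and 44.9%. The member windows had a median GC content of 64.5% and the others 58.7%, and how far base composition sets these shares was not tested. The motifs and the promoters shown were chosen after the expression values had been seen, and a match in a window is a description of its letters.

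Library totals ran from 9653374 to 20157081 counts. The table holds whole-number counts, and levels below are CPM, a count divided by its library's total after TMM scaling across the 16 libraries. Of the markers of neutrophils, 12 genes summed to between 2565 and 17140 CPM in the dHL-60 libraries and between 455 and 505 CPM in uHL-60, while FCGR3B, a receptor of mature neutrophils, was under 1 CPM in 5 of the 6 dHL-60 groups. CD68, CD163, MRC1 and MARCO of the monocyte and macrophage list and CD3D, CD3E, CD3G and MS4A1 of the lymphocyte list were under 1 CPM in every dHL-60 group. The lymphocyte list (8 genes) summed to 10.8 to 11.7 CPM in untreated dHL-60 at 24 h and 211 to 292 CPM with LTA at 10 µg/ml. Markers of eosinophils and basophils (8 genes) summed to 4181 to 4529 CPM in uHL-60 and at most 22.4 CPM in dHL-60. Of these, SIGLEC8, IL5RA, CPA3 and HDC were under 1 CPM in every uHL-60 group. Those of red cells and platelets summed to at most 39.7 CPM in any library. The marker sums took in every listed gene, without the setting aside of symbols described below for comparisons with uHL-60.

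The counts of 3 members need care before any comparison with uHL-60. PWP2 had 1 to 11 counts in each dHL-60 library and 1126 to 1752 in each uHL-60 library, and NOP2 had 10 to 42 and 2318 to 3475. PWP2 has a near-identical copy on chromosome 21, and 54.4% of NOP2 exon bases and 11.4% of RRS1 exon bases lie within a second gene of the same strand. These 3 were set aside where dHL-60 was set against uHL-60, which left 30 members. Within dHL-60, PWP2 did not pass the filter on low counts, so 32 members were tested, NOP2 on its few remaining counts. Genes on the opposite strand overlap over 10% of the exon bases of HEATR1, NHP2, NOP14, NOP16, PNO1 and TSR1, and whether counting used strand is stated nowhere in the sources.

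The members rose together between 4 h and 24 h in untreated dHL-60, and LTA at 10 µg/ml left most of them lower at 24 h. Summed over the 30 members, the level was 3955 ± 97.4 CPM (SD, n = 2) in untreated cells at 4 h and 7278 ± 75.3 at 24 h. With LTA it was 3506 ± 31.8 at 1 µg/ml and 3700 ± 23.6 at 10 µg/ml at 4 h, and 5966 ± 395 and 4663 ± 211 at 24 h. The single uHL-60 libraries had 10809 CPM untreated and 10838 with LTA at 4 h, and 9762 and 9713 at 24 h. Every uHL-60 sum was above every dHL-60 sum, and at 24 h the 3 dHL-60 groups did not overlap. In bulk RNA, fewer cells of a type and less RNA per cell cannot be told apart.

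**Figure D1:**
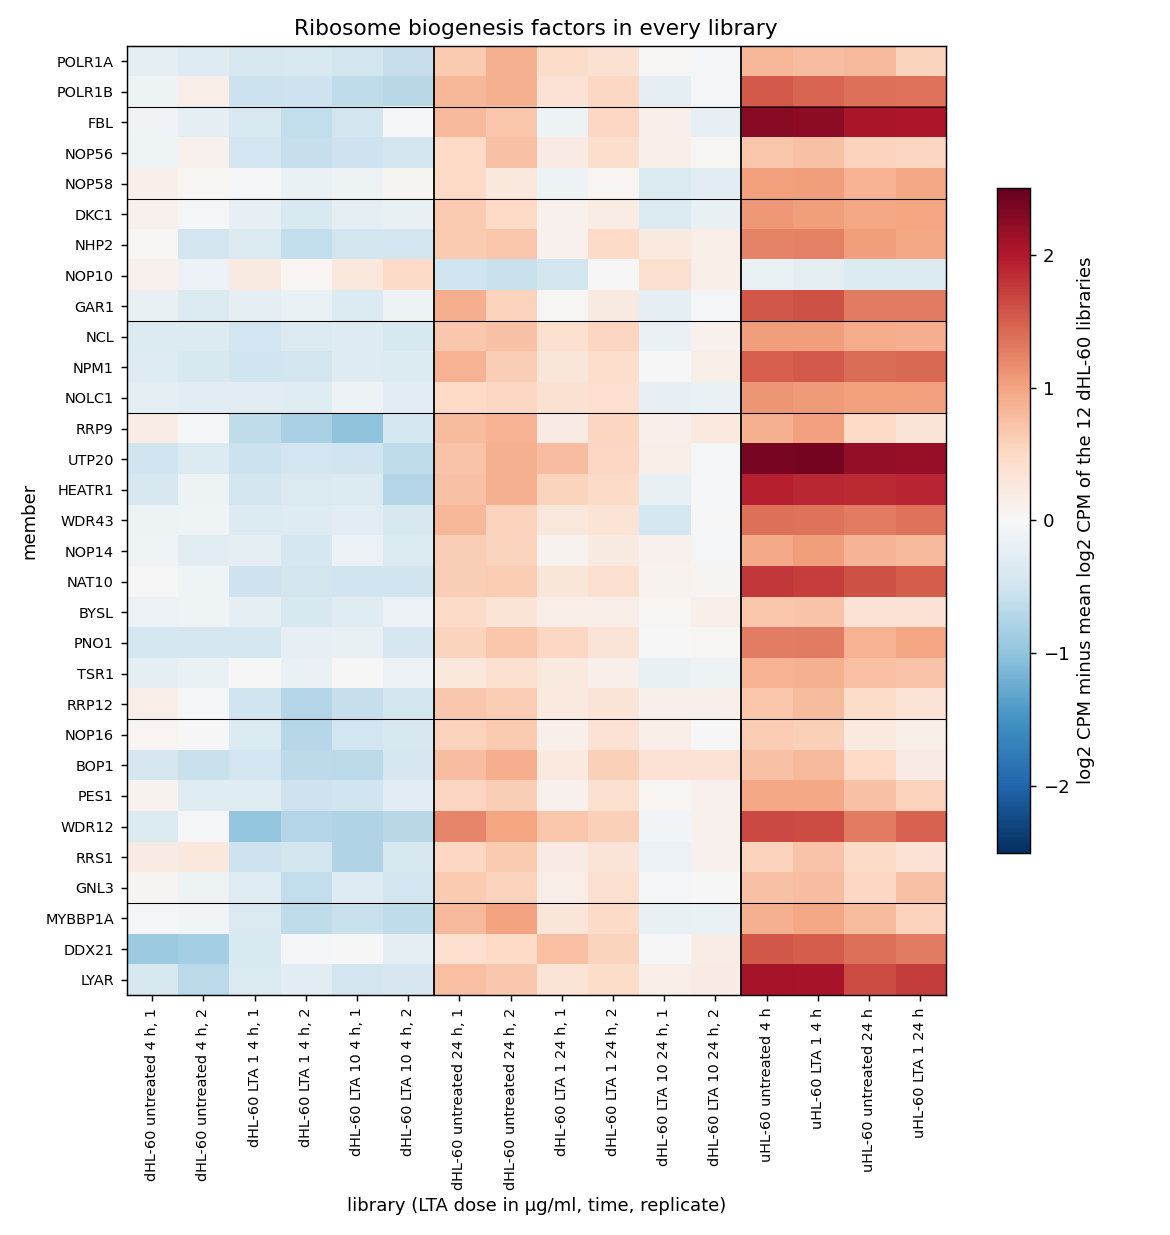
Level of 31 members (rows, grouped by role, all but NOP2 and PWP2) in the 16 libraries (columns), as log2 CPM minus the mean log2 CPM of the 12 dHL-60 libraries. Most rows are blue at 4 h, red in untreated dHL-60 at 24 h, paler with LTA at 24 h and darkest red in uHL-60. Exceptions include NOP10, lowest in untreated dHL-60 at 24 h, BOP1, higher there (126 and 139 CPM) than in untreated uHL-60 (123 and 104 CPM), and NOP58 and RRS1, above their means in untreated cells at 4 h.

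Among the 6 dHL-60 groups, untreated cells at 24 h had the highest mean in 29 of the 31 members other than NOP2 and PWP2. DDX21 was highest with LTA at 1 µg/ml at 24 h and NOP10 with LTA at 10 µg/ml at 4 h. The lowest mean was at 4 h for all but 2 of the 31, with LTA at 1 µg/ml for 18, with 10 µg/ml for 6 and in untreated cells for 5. The exceptions were NOP10, lowest in untreated cells at 24 h, and NOP58, lowest with LTA at 10 µg/ml at 24 h. Per kilobase of annotated exon, nucleophosmin (NPM1) and nucleolin (NCL) were abundant, at 366 and 249 CPM per kb in untreated cells at 24 h, and UTP20 was scarce at 4.41 CPM per kb.

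Between 4 h and 24 h in untreated dHL-60, 28 of 32 members rose and 1 fell (adjusted p under 0.05). Over all 11866 genes tested, 17.8% rose and 23.1% fell. The median log2 change of the members was 0.79 and that of all genes -0.04. The 28 included both RNA polymerase I subunits, all 3 chaperones and scaffolds, all 10 tested small subunit factors and all 3 nucleolar regulators. NOP58, RRS1 and NOP2 did not pass, and NOP10 fell.

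DDX21, an RNA helicase of the nucleolus that links RNA polymerase I transcription to rRNA processing, was at 114 and 119.9 CPM at 4 h and at 290.3 and 308 CPM at 24 h. Its log2 change was 1.35 ± 0.15 (SE, adjusted p = 1.806e-05). The other large rises were those of BOP1 (1.33 ± 0.15, adjusted p = 1.931e-05) and WDR12 (1.28 ± 0.15, adjusted p = 2.246e-05), which with PES1 form the PeBoW complex of 60S assembly, of LYAR, a nucleolar growth regulator (1.24 ± 0.14, adjusted p = 2.013e-05), and of UTP20, a small subunit processome scaffold (1.20 ± 0.15, adjusted p = 3.96e-05). PES1 itself rose by 0.66 ± 0.16 (adjusted p = 0.005338), a call lost without replicate 2 at 4 h (0.47, adjusted p = 0.05606).

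Nucleolin, an RNA-binding chaperone of the nucleolus, was at 834 and 839.5 CPM at 4 h and at 1694 and 1761 CPM at 24 h (log2 change 1.04 ± 0.14, adjusted p = 5.88e-05). Nucleophosmin, a chaperone of ribosome export, was at 671 and 634 CPM and then at 1522 and 1277 CPM (1.09 ± 0.14, adjusted p = 4.08e-05). Both genes roughly doubled, with no overlap between the times. NOP10, the small scaffold protein of the box H/ACA particle, was at 118 and 99.6 CPM at 4 h and at 77.6 and 74.4 CPM at 24 h (-0.52 ± 0.17, adjusted p = 0.02237). This call was lost without replicate 1 of the 4 h group (-0.38, adjusted p = 0.1604) and without replicate 1 or 2 of the 24 h group (-0.55 and -0.48, adjusted p = 0.07943 and 0.1034). The other 3 proteins of its particle, dyskerin (DKC1), NHP2 and GAR1, rose, dyskerin not passing without replicate 1 at 24 h (0.45, adjusted p = 0.0518).

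Markers of other states moved along with this rise. The promyelocyte list (8 genes) summed to 9096 to 11920 CPM at 4 h and 17290 to 22550 CPM at 24 h, and the neutrophil list to 6761 to 8690 and then 2565 to 2631 CPM. MYC was at 1183 and 1095 CPM and then at 1884 and 2413 CPM (log2 change 0.91 ± 0.17, adjusted p = 0.0008689). Their part in the result was not tested. The untreated 24 h group is also the control of the 24 h LTA comparisons, so the comparisons share those 2 libraries.

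With LTA present at both times the rise was called for 27 of 32 members at 1 µg/ml, with none called lower (25.5% and 23.3% of all genes rose and fell), and for 19 at 10 µg/ml, with none called lower (24% and 22.7%). For falls, the unadjusted p was under 0.05 for 1 member at 1 µg/ml and 0 at 10 µg/ml, and DESeq2 called 0 at either dose. WDR12 had the largest rise at 1 µg/ml (1.49 ± 0.15, adjusted p = 4.12e-06) and BOP1 at 10 µg/ml (0.90 ± 0.15, adjusted p = 0.0002823). Without any one of its 4 libraries, the count at 10 µg/ml was 11 or 12. At 1 µg/ml it was 23 to 27, and 1 member fell when replicate 2 of LTA 1 µg/ml at 24 h was left out.

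At 4 h, some members fell with LTA and DDX21 rose. At 1 µg/ml 10 of 32 members fell and 1 rose, against 20.1% of all genes that fell and 18.7% that rose. At 10 µg/ml 9 fell and 1 rose, against 21.3% and 20%. The members' median log2 change was -0.20 and -0.17, and that of all genes -0.04 at both doses. The share of members that fell was above that of all genes and the share that rose was below it. Neither count is read as a result about the members. The doses share their untreated libraries.

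RRP9, the protein specific to the U3 snoRNP of the small subunit processome, was at 58.9 and 50.6 CPM in untreated cells, at 33.4 and 29.4 CPM with LTA 1 µg/ml and at 25.7 and 38.0 CPM with 10 µg/ml. Its log2 changes were -0.80 ± 0.18 (adjusted p = 0.003718) and -0.76 ± 0.18 (adjusted p = 0.004566). RRS1, which brings the 5S particle into the large subunit, was at 44.6 and 46.4 CPM untreated and between 23.0 and 29.1 CPM in the 4 LTA libraries (-0.72 ± 0.15, adjusted p = 0.001775, and -0.79 ± 0.15, adjusted p = 0.0008668). Neither gene had an LTA library as high as an untreated one. Without LTA replicate 1 the RRP9 call at 10 µg/ml was lost (-0.51, adjusted p = 0.0716).

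RRP12, a 40S assembly and export factor, fell by 0.68 ± 0.14 on the log2 scale at 1 µg/ml (adjusted p = 0.001447) and by 0.57 ± 0.14 at 10 µg/ml (adjusted p = 0.003966). WDR12 fell by 0.67 ± 0.16 (adjusted p = 0.004124) and by 0.53 ± 0.15 (adjusted p = 0.01369). POLR1B, the second-largest subunit of RNA polymerase I, was at 42.9 and 52.7 CPM untreated, 32.3 and 32.4 CPM at 1 µg/ml and 30.2 and 28.9 CPM at 10 µg/ml (-0.56 ± 0.14, adjusted p = 0.005958, and -0.68 ± 0.14, adjusted p = 0.001601). MYBBP1A, a nucleolar protein that restrains ribosomal DNA transcription, fell by 0.45 ± 0.14 (adjusted p = 0.02043) and by 0.54 ± 0.14 (adjusted p = 0.007219). NOP56 of the box C/D particle, the rRNA acetyltransferase NAT10 and the 60S factor NOP16 also fell at both doses. Without 1 library, NOP56 was between -0.61 and -0.44 at 1 µg/ml, not passing without LTA replicate 2, and between -0.56 and -0.39 at 10 µg/ml, not passing without untreated replicate 2 or either LTA library. NAT10 was between -0.49 and -0.37 at 1 µg/ml and between -0.47 and -0.36 at 10 µg/ml, and it did not pass without untreated replicate 1 or LTA replicate 1 at either dose. NOP16 was between -0.75 and -0.35 at 1 µg/ml, not passing without untreated replicate 1 or LTA replicate 2. At 10 µg/ml NOP16 was between -0.48 and -0.40, not passing with any 1 of the 4 libraries left out. GNL3, another 60S factor, was called lower at 1 µg/ml alone (-0.43). Without 1 library GNL3 was between -0.60 and -0.27, not passing without untreated replicate 1 or LTA replicate 2. At 1 µg/ml POLR1B did not pass without untreated replicate 2 (-0.42, adjusted p = 0.06412), nor MYBBP1A without untreated replicate 1 (-0.41, adjusted p = 0.08987) or LTA replicate 2 (-0.30, adjusted p = 0.2033). At 10 µg/ml WDR12 did not pass without untreated replicate 2 (-0.39, adjusted p = 0.1133) or LTA replicate 1 (-0.50, adjusted p = 0.08386). The largest subunit, POLR1A, was at 75.2 and 70.1 CPM untreated and between 58.9 and 67.6 CPM with LTA, and its log2 changes of -0.11 ± 0.13 and -0.22 ± 0.13 did not pass the test.

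DDX21 was the exception, at 114 and 119.9 CPM untreated, 166 and 212 CPM at 1 µg/ml and 219 and 183 CPM at 10 µg/ml. Its log2 changes were 0.70 ± 0.15 (adjusted p = 0.002384) and 0.80 ± 0.15 (adjusted p = 0.0008265), and both calls held with each library left out. Nucleolin stayed between 756 and 842 CPM in all 6 libraries at 4 h, with changes of -0.08 ± 0.13 and -0.01 ± 0.13 that did not pass. Nucleophosmin and NOLC1 did not pass at 4 h at either dose. The count of falling members at 1 µg/ml was 6 without untreated replicate 1 or without LTA replicate 2, and at 10 µg/ml it was 4 without LTA replicate 1. MYC fell by 1.65 ± 0.17 (adjusted p = 6.826e-06) and by 1.77 ± 0.17 (adjusted p = 3.219e-06), from 1183 and 1095 CPM to between 304 and 403 CPM.

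**Figure D2:**
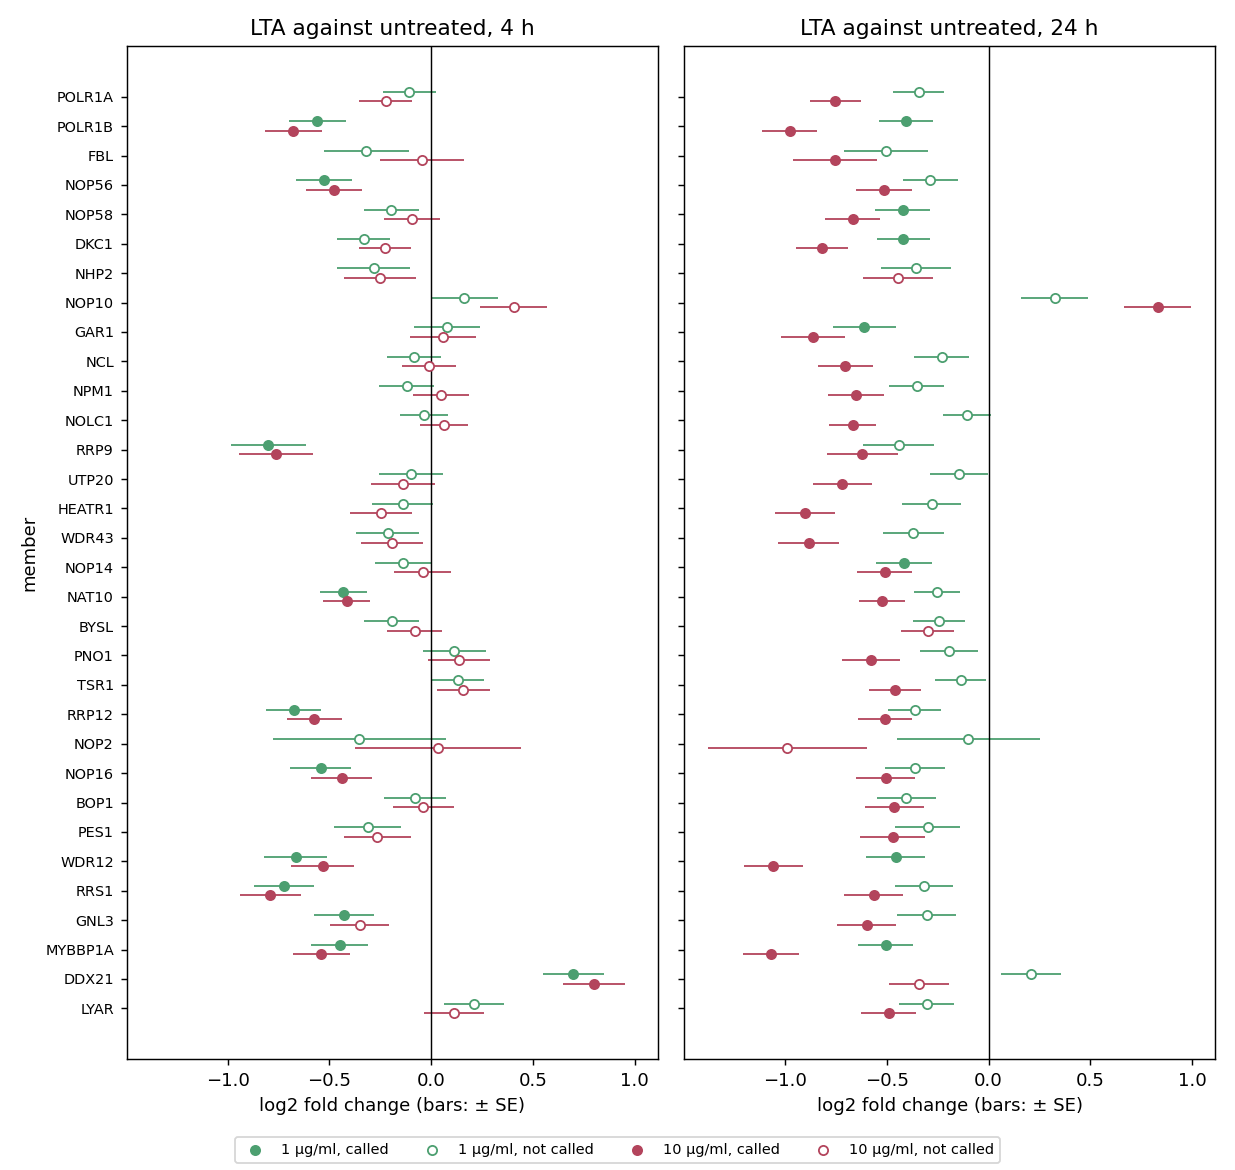
Log2 fold change with LTA against untreated dHL-60 (horizontal axis, bars ± SE) for the 32 members tested, at 4 h (left) and 24 h (right), at 1 µg/ml (green) and 10 µg/ml (red), filled where the adjusted p is under 0.05. At 4 h only DDX21 is called to the right of 0, and at 24 h 27 members are called to the left of 0 at 10 µg/ml with NOP10 called to the right.

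At 24 h, LTA at 10 µg/ml lowered 27 of 32 members, and 1 rose. Over all genes 19% fell and 23.6% rose, and the median log2 change was -0.61 for the members and -0.01 for all genes. The fall took in both RNA polymerase I subunits, all 3 box C/D proteins, dyskerin and GAR1 of the box H/ACA particle, all 3 chaperones and scaffolds, 9 of the 10 tested small subunit factors, 6 of the 7 factors of 60S assembly and 2 of the 3 nucleolar regulators. BYSL, NHP2, DDX21 and NOP2 did not pass, with log2 changes of -0.30 ± 0.13, -0.45 ± 0.17, -0.34 ± 0.15 and -0.99 ± 0.39. The calls of NOP56 (-0.63 to -0.40), NOP14 (-0.64 to -0.44), NOP16 (-0.65 to -0.43), RRP9 (-0.67 to -0.59) and TSR1 (-0.53 to -0.40) did not hold in every fit with 1 library left out. Those of FBL, LYAR, PES1 and BOP1, given below, did not either. Leaving out each of the 4 libraries gave 21 to 25 falling members.

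Of the RNA polymerase I subunits, POLR1B was at 83.5 and 86.8 CPM untreated, 60.4 and 67.1 CPM at 1 µg/ml and 39.5 and 45.2 CPM at 10 µg/ml. Its log2 change at 10 µg/ml was -0.98 ± 0.13 (adjusted p = 6.995e-05). POLR1A was at 139 and 162 CPM, then at 121 and 114 CPM and at 89.6 and 85.5 CPM (-0.75 ± 0.13, adjusted p = 0.0003328). For both subunits the 3 groups followed the dose without overlap.

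In the box C/D particle, fibrillarin (FBL), the methyltransferase, was at 257 and 237 CPM untreated, 135 and 211 CPM at 1 µg/ml and 160.2 and 127 CPM at 10 µg/ml. The fall at 10 µg/ml was -0.76 ± 0.21 (adjusted p = 0.009409), and it did not pass without untreated replicate 1 (-0.69, adjusted p = 0.05778) or LTA replicate 2 (-0.59, adjusted p = 0.07679). NOP58, a scaffold of the particle, was at 148 and 126 CPM, then at 95.4 and 108 CPM and at 82.1 and 87.6 CPM (-0.67 ± 0.14, adjusted p = 0.00151). The LTA libraries of both genes were below the untreated ones at both doses, and the 2 doses overlapped for FBL.

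The box H/ACA particle split. GAR1 was at 61.3 and 48.7 CPM untreated, 33.3 and 38.2 CPM at 1 µg/ml and 27.7 and 31.8 CPM at 10 µg/ml (-0.86 ± 0.16, adjusted p = 0.0006527). Dyskerin, the pseudouridine synthase, fell by 0.82 ± 0.13 (adjusted p = 0.0002158). NOP10 rose, from 77.6 and 74.4 CPM to 80.2 and 109 CPM at 1 µg/ml and 144 and 121 CPM at 10 µg/ml (0.83 ± 0.17 at 10 µg/ml, adjusted p = 0.00133). Its call held with each library left out, and its LTA libraries were above the untreated ones at both doses.

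Among the chaperones and scaffolds, nucleolin was at 1694 and 1761 CPM untreated, 1392 and 1529 CPM at 1 µg/ml and 942 and 1140.3 CPM at 10 µg/ml (-0.70 ± 0.13, adjusted p = 0.0009792). NOLC1, a nucleolar phosphoprotein that binds snoRNPs, was at 374 and 377 CPM, then at 340.2 and 351 CPM and at 228 and 235 CPM (-0.67 ± 0.12, adjusted p = 0.0004889). Nucleophosmin fell by 0.65 ± 0.14 (adjusted p = 0.001748). For nucleolin and NOLC1 the 3 groups followed the dose without overlap.

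HEATR1, a processome protein also needed for RNA polymerase I transcription, was at 94.6 and 106 CPM untreated, 83.8 and 79.6 CPM at 1 µg/ml and 50.2 and 55.0 CPM at 10 µg/ml (-0.90 ± 0.15, adjusted p = 0.000297). WDR43, another processome protein, was at 117 and 98.4 CPM, then at 81.0 and 84.6 CPM and at 48.7 and 66.0 CPM (-0.88 ± 0.15, adjusted p = 0.0004111). Of 60S assembly, WDR12 was at 86.4 and 73.5 CPM, then at 59.8 and 55.9 CPM and at 35.3 and 40.1 CPM (-1.06 ± 0.15, adjusted p = 7.284e-05). All 3 genes stepped down with the dose. NOP2, an rRNA methyltransferase, was at 2.26 and 2.09 CPM untreated, 2.06 and 1.99 CPM at 1 µg/ml and 1.35 and 0.835 CPM at 10 µg/ml, from 12 to 42 counts a library. PES1 and BOP1, the partners of WDR12, fell by 0.47 ± 0.16 (adjusted p = 0.03016) and 0.46 ± 0.15 (adjusted p = 0.02152). PES1 did not pass with any 1 of the 4 libraries left out (-0.51 to -0.44), nor BOP1 without untreated replicate 2 (-0.40) or either LTA library (-0.53 and -0.46).

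MYBBP1A had the largest fall of all members, from 129 and 147 CPM to 90.5 and 102 CPM at 1 µg/ml and 64.1 and 64.9 CPM at 10 µg/ml (-1.07 ± 0.14, adjusted p = 3.773e-05). LYAR was at 43.3 and 40.7 CPM untreated, 32.3 and 35.1 CPM at 1 µg/ml and 28.9 and 29.7 CPM at 10 µg/ml (-0.49 ± 0.14, adjusted p = 0.01034), and its call was lost without untreated replicate 1 (-0.44, adjusted p = 0.06889). DDX21 was at 290.3 and 308 CPM untreated, 366 and 319 CPM at 1 µg/ml and 215 and 248 CPM at 10 µg/ml. Its log2 changes of 0.21 ± 0.15 and -0.34 ± 0.15 did not pass (adjusted p = 0.3543 and 0.07822).

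**Figure D3:**
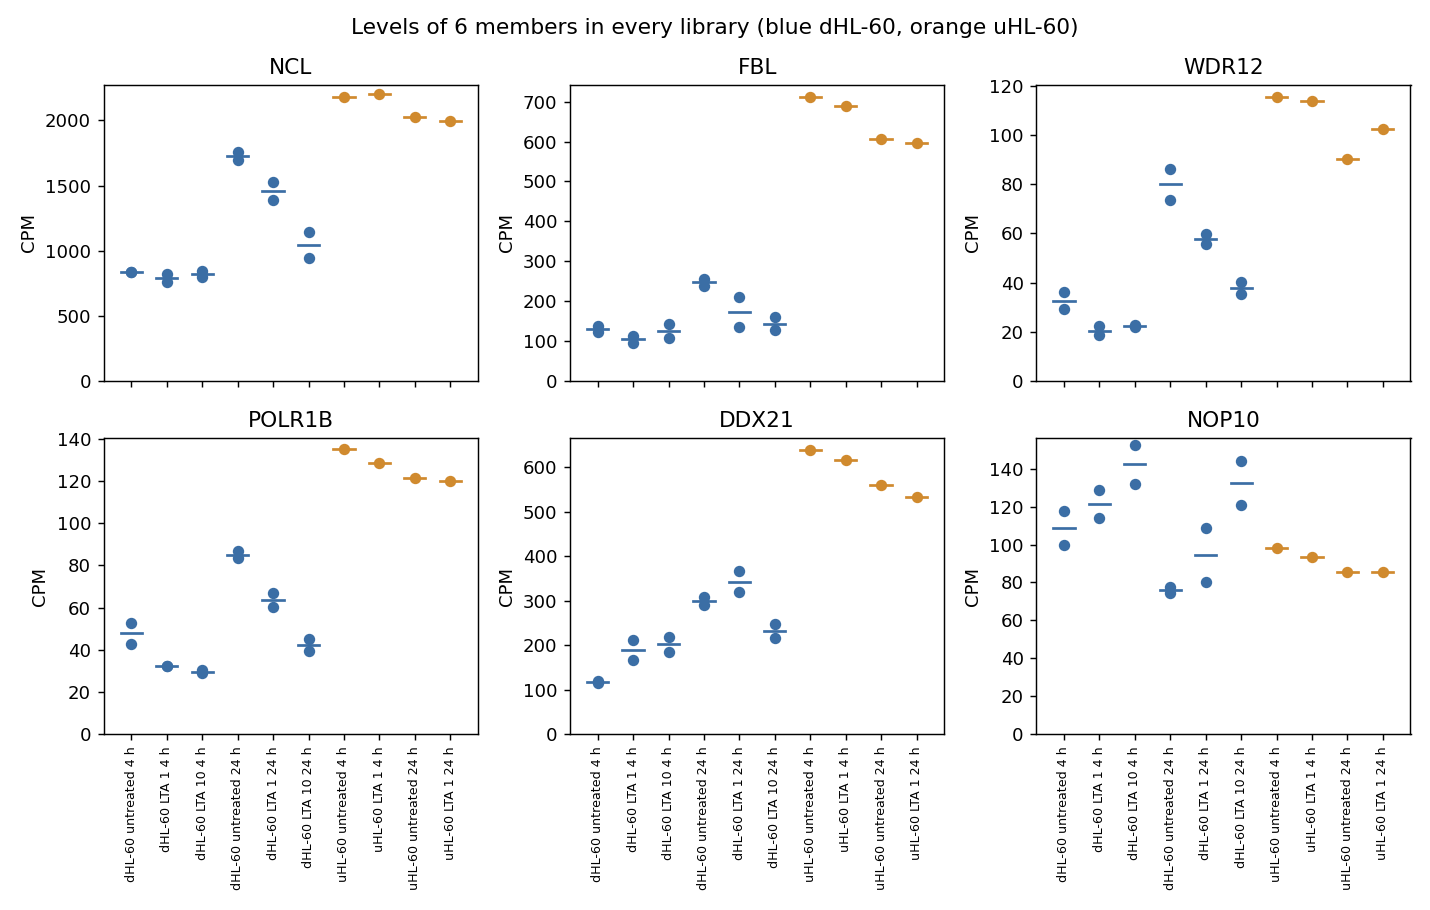
CPM of NCL, FBL, WDR12, POLR1B, DDX21 and NOP10 (vertical axes, from 0) in every library, by group (horizontal axis), with points for libraries and lines for group means. The first 4 peak among dHL-60 in untreated cells at 24 h and step down with LTA, DDX21 is above the untreated level with LTA at 4 h, and NOP10 is lowest in untreated cells at 24 h.

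At 1 µg/ml, 7 of 32 members fell at 24 h and none rose, against 7.26% and 13.9% of all genes, with a median log2 change of -0.33. For rises the unadjusted p was under 0.05 for 0 members, and DESeq2 called 0. The 7 were GAR1 (-0.61 ± 0.15, adjusted p = 0.01213), MYBBP1A (-0.51 ± 0.14, adjusted p = 0.01635), WDR12 (-0.46 ± 0.14, adjusted p = 0.03622), NOP58 (-0.42 ± 0.14, adjusted p = 0.03966), DKC1 (-0.42 ± 0.13, adjusted p = 0.03247), NOP14 and POLR1B. The count was 1 without untreated replicate 1, 3 without untreated replicate 2, 0 without LTA replicate 1 and 4 without LTA replicate 2. Every one of the 7 calls was lost in 2 or more of these 4 fits, with GAR1 between -0.77 and -0.43 and MYBBP1A between -0.60 and -0.41. With upper-quartile scaling the count was 13.

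The doses were also compared directly. At 24 h, 6 of 32 members were lower at 10 than at 1 µg/ml and 0 were higher, against 0.792% and 3.03% of all genes. They were HEATR1 (-0.62 ± 0.15, adjusted p = 0.03558), WDR12 (-0.60 ± 0.15, adjusted p = 0.03889), UTP20 (-0.57 ± 0.15, adjusted p = 0.04493), POLR1B (-0.57 ± 0.13, adjusted p = 0.03343), MYBBP1A (-0.56 ± 0.14, adjusted p = 0.03839) and NOLC1 (-0.56 ± 0.12, adjusted p = 0.01851). Without either library of 1 µg/ml or without replicate 1 of 10 µg/ml the count was 0. POLR1A, NCL and WDR43, whose libraries also stepped down with the dose, were not called in this direct test. For higher members the unadjusted p was under 0.05 for 1 and DESeq2 called 0. At 4 h the doses differed for 0 of 32 members in either direction, with 0 at an unadjusted p under 0.05 and 0 by DESeq2, and for 0.00843% of all genes.

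Whether the LTA response changed between 4 h and 24 h was tested as a difference of differences. At 10 µg/ml the response was lower at 24 h for 13 of 32 members and higher for 0, against 14% and 19.7% of all genes. DDX21 had the largest difference (-1.14 ± 0.21, adjusted p = 0.001191), followed by GAR1 (-0.92 ± 0.23, adjusted p = 0.007236), NOLC1 (-0.73 ± 0.17, adjusted p = 0.0045), PNO1, a 40S assembly factor (-0.72 ± 0.21, adjusted p = 0.01831) and NPM1 (-0.70 ± 0.19, adjusted p = 0.01307). The other 8 were DKC1, HEATR1, LYAR, NCL, NOP58, POLR1A, TSR1 and WDR43. Of these 8, only NCL kept its call with each library left out (-0.83 to -0.63). The calls of LYAR (-0.75 to -0.47), NOP58 (-0.70 to -0.45), DKC1 (-0.69 to -0.51) and HEATR1 (-0.85 to -0.48) were each lost in some fits. So were those of POLR1A (-0.64 to -0.42), WDR43 (-0.93 to -0.56) and TSR1 (-0.71 to -0.55). For higher values the unadjusted p was under 0.05 for 0 members and DESeq2 called 0. The count was 8 without LTA replicate 1 at 4 h or without untreated replicate 1 at 24 h. NPM1 did not pass in the second of these (-0.56, adjusted p = 0.0705), nor PNO1 in the first (-0.62, adjusted p = 0.07935) or without untreated replicate 2 at 24 h (-0.65, adjusted p = 0.0521).

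RRP9, RRS1 and RRP12, among the strongest falls at 4 h, had differences of 0.14 ± 0.25, 0.23 ± 0.21 and 0.06 ± 0.19 that did not pass. At 1 µg/ml the response was lower at 24 h for GAR1 alone (-0.69 ± 0.22, adjusted p = 0.0434), against 7.41% of all genes, and for 0 members higher, against 13.3%, with 0 at an unadjusted p under 0.05 and 0 by DESeq2. The GAR1 call was lost when any of 6 of the 8 libraries was left out, all but replicate 1 of untreated cells at 4 h and replicate 2 of untreated cells at 24 h, with values from -0.79 to -0.51.

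Untreated dHL-60 had less RNA of most members than untreated uHL-60, in a fit with the time as a term. The fit gives 1 difference for both times. The sums in dHL-60 and uHL-60 were 3955 and 10809 CPM at 4 h and 7278 and 9762 CPM at 24 h. The gap was thus smaller at 24 h, and whether the difference changed with time was not tested. Of the 30 members, 20 were lower and 0 higher, against 26.3% and 30.5% of the 10910 genes compared, and the median log2 difference was -0.83 for the members and 0.05 for all genes. For higher members the unadjusted p was under 0.05 for 0 and DESeq2 called 0. UTP20 was at 18.1 to 46.8 CPM in the 4 dHL-60 libraries and at 131 and 117 CPM in the 2 uHL-60 libraries (-2.16 ± 0.28, adjusted p = 0.0003143). FBL was at 123 to 257 CPM and at 711 and 607 CPM (-1.93 ± 0.25, adjusted p = 0.0003098). No dHL-60 library of either gene reached a uHL-60 library.

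LYAR (-1.86 ± 0.33, adjusted p = 0.001582), DDX21 (-1.77 ± 0.31, adjusted p = 0.00133) and HEATR1 (-1.68 ± 0.26, adjusted p = 0.0006545) followed. All 3 chaperones and scaffolds and 7 of the 10 small subunit factors were lower. The 10 that did not pass were POLR1A, NOP56, NOP10, RRP9, BYSL, RRP12, NOP16, BOP1, GNL3 and MYBBP1A, all with estimates below 0, from -0.04 ± 0.17 for NOP10. At 24 h all of these 10 but POLR1A and NOP10 had a higher mean in untreated dHL-60 than in the untreated uHL-60 library. RRP9, for example, was at 92.5 and 73.1 CPM and NOP56 at 507 and 494 CPM. For the 20 called members, no dHL-60 library reached a uHL-60 library. BOP1 was at 126 and 139 CPM in untreated dHL-60 at 24 h and at 123 and 104 CPM in untreated uHL-60 at 4 h and 24 h. MYC was at 1735 CPM at 4 h and 1471 CPM at 24 h in untreated uHL-60. In untreated dHL-60 it was lower at 4 h (1183 and 1095 CPM) and higher at 24 h (1884 and 2413 CPM). Its difference of -0.09 ± 0.28, taken over both times, did not pass.

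Leaving out each dHL-60 library gave 15 to 21 lower members. Each uHL-60 group is 1 library, and the state of the cells cannot be told apart from their culture, library batch or counting. Of the symbols set aside (shared exons, no entry in the exon annotation, or PWP2), 14.8% differed by more than 5 on the log2 scale, against 4.3% of those kept. The promyelocyte list summed to 26400 and 26660 CPM in untreated uHL-60.

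In uHL-60 itself LTA moved no member past the test. Over both times 0 of 33 members rose and 0 fell, with 0 at an unadjusted p under 0.05 in either direction and 0 by DESeq2, against 0.0998% and 0.109% of all genes. Within a time, the log2 ratios of the single libraries ran from -0.07 to 0.14 at 4 h (median 0.01) and from -0.29 to 0.20 at 24 h (median -0.02). No member passed 1.5-fold at either time, against 0.045% of genes higher and 0.0337% lower at 4 h and 0.145% and 0.19% at 24 h. DDX21, for example, was at 639 and 617 CPM without and with LTA at 4 h, and NCL at 2176 and 2200.0 CPM.

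The LTA response at 1 µg/ml was then compared between the states. At 4 h it was lower in dHL-60 for 1 of 30 members, RRP12 (-0.77 ± 0.23, adjusted p = 0.04529), and higher for 0, against 4.97% and 5.64% of genes. RRP12 was not called without untreated replicate 1 (-0.61) or LTA replicate 2 (-0.64) of dHL-60, and 1 member was higher without LTA replicate 1. For higher members the unadjusted p was under 0.05 for 1 (DDX21, 0.74 ± 0.26, adjusted p = 0.08603), and DESeq2 called 1. At 24 h 0 of 30 differed in either direction, against 1.44% higher and 0.277% lower, with 0 higher and 3 lower at an unadjusted p under 0.05 and 0 by DESeq2. With 1 uHL-60 library a group the standard errors for RRP12 and DDX21 at 4 h were 0.23 and 0.26, against 0.14 and 0.15 for the response to LTA 1 µg/ml within dHL-60.

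Other genes of the pathway were counted from lists chosen by function. Between 4 h and 24 h in untreated dHL-60, 28 of 35 other small subunit processome factors rose and 0 fell, 35 of 41 other 60S assembly factors rose and 1 fell, 6 of 11 RNA exosome subunits rose and 0 fell and 5 of 11 other genes of RNA polymerase I transcription rose and 1 fell. Of 77 cytosolic ribosomal proteins, the products that these factors assemble with rRNA, 2 rose and 5 fell. Over all genes 17.8% rose and 23.1% fell. The list medians were 0.63, 0.65, 0.38, 0.56 and -0.10 on the log2 scale. The assembly lists thus moved with the members, and few ribosomal proteins were called.

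With LTA at 10 µg/ml at 24 h, 0 of 35 processome factors rose and 17 fell. Of 41 factors of 60S assembly 1 rose and 25 fell. Of 11 exosome subunits 1 rose and 5 fell, and of 11 RNA polymerase I genes 0 rose and 5 fell. Over all genes 23.6% rose and 19% fell. MDN1, the giant ATPase of 60S assembly, fell from 173 and 206 CPM to 70.6 and 77.2 CPM (-1.33 ± 0.14, adjusted p = 8.625e-06), and NLE1, its partner, fell by 1.15 ± 0.13 (adjusted p = 1.125e-05). WDR36 and WDR3 of the processome fell by 1.27 ± 0.23 (adjusted p = 0.0005921) and 0.93 ± 0.15 (adjusted p = 0.0002787). TAF1D and POLR1C of RNA polymerase I transcription fell by 0.88 ± 0.13 (adjusted p = 0.000133) and 0.66 ± 0.15 (adjusted p = 0.002922), and EXOSC5 and EXOSC6 of the exosome by 0.78 ± 0.17 (adjusted p = 0.002547) and 0.55 ± 0.12 (adjusted p = 0.002135). RRP36 (0.85 ± 0.16, adjusted p = 0.0007048) and EXOSC4 (0.46 ± 0.16, adjusted p = 0.03055) rose.

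Ribosomal proteins were counted at both doses. At 24 h, 8 of 77 fell and 0 rose at 10 µg/ml (median -0.24), against 19% and 23.6% of all genes. At 1 µg/ml 22 fell and 0 rose (median -0.45), against 7.26% and 13.9%. The share that fell was thus below that of all genes at 10 µg/ml and above it at 1 µg/ml. The members' medians were -0.61 at 10 µg/ml and -0.33 at 1 µg/ml. RPL22 fell by 1.06 ± 0.13 (adjusted p = 3.188e-05) and RPS3A by 0.66 ± 0.18 (adjusted p = 0.009211) at 10 µg/ml. The direct comparison of the doses called 0 of the 77 in either direction, against 3.03% of all genes higher and 0.792% lower. Of the 77, 5 were higher and 0 lower at an unadjusted p under 0.05. Both doses share their untreated libraries.

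**Figure D4:**
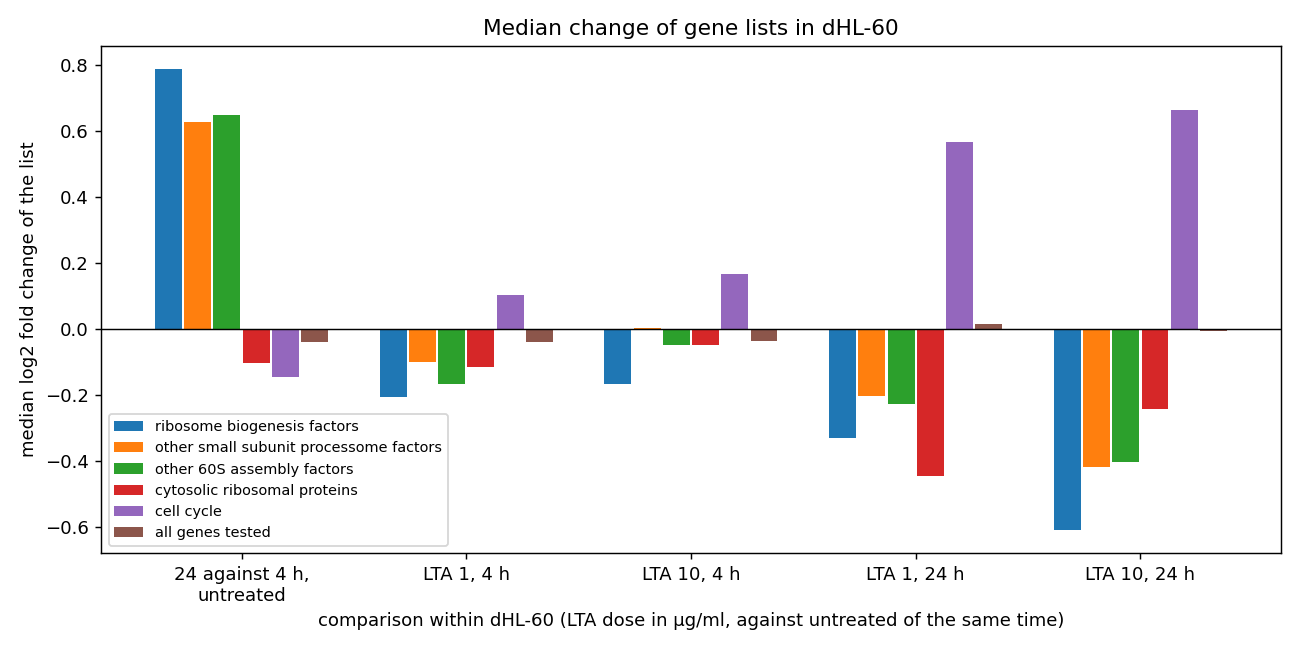
Median log2 fold change (vertical axis, bars from 0) of the ribosome biogenesis factors, 4 other gene lists and all genes tested, in 5 comparisons within dHL-60. The members and the assembly lists are above 0.6 from 4 h to 24 h in untreated cells and lowest with LTA 10 µg/ml at 24 h, where the cell cycle list is at 0.66.

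Lists around the members did not all move with them. With LTA at 10 µg/ml at 24 h, 12 of 20 cell cycle genes rose and 0 fell, among them RRM2 (1.47 ± 0.18, adjusted p = 2.084e-05), a subunit of ribonucleotide reductase, and the mitotic kinase PLK1 (1.47 ± 0.18, adjusted p = 2.472e-05). Of 10 genes of the MYC network 4 rose and 3 fell. Over all genes 23.6% rose and 19% fell. MYC was at 1884 and 2413 CPM untreated, 1089 and 1335 CPM at 1 µg/ml and 746 and 845 CPM at 10 µg/ml (-0.81 ± 0.17, adjusted p = 0.003687, and -1.41 ± 0.17, adjusted p = 2.361e-05). MXD4, a repressor that shares the partner of MYC, fell by 1.29 ± 0.17 (adjusted p = 3.748e-05), while MYCL (2.40 ± 0.23, adjusted p = 3.031e-06) and MXD3 (1.70 ± 0.18, adjusted p = 8.651e-06) rose. The promyelocyte list summed to 17290 to 22550 CPM untreated and 4872 to 6063 CPM with LTA at 10 µg/ml, and the neutrophil list to 2565 to 2631 and 16060 to 17140 CPM. The monocyte and macrophage list summed to 190 to 196 and 1596 to 1681 CPM, with CD68, CD163, MRC1 and MARCO under 1 CPM. The lymphocyte list summed to 10.8 to 11.7 and 211 to 292 CPM. Their part in the fall of the members was not tested.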

How the data were processed

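The authors deposited whole-number counts per gene symbol and library, with no normalization, per the file headers and values. Per the labels' protocols, total RNA went into a stranded mRNA kit. HISAT2 2.1.0, fastp 0.20.0, edgeR 3.36.0, Subread with featureCounts 2.0.1, DESeq2 1.28.0 and GRCh38 are named in the submitters' processing notes without a role. Groups came from the sample titles.

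The uHL-60 columns were realigned to a plain character order of the symbols, which moves 1343 symbols and 0 members. The Spearman correlation with untreated dHL-60 at 4 h over those symbols was 0.735 after realigning and 0.212 before. Exon overlap and length came from GENCODE, promoters from RefSeq. Symbols with no GENCODE entry, symbols sharing over 10% of exon bases on the same strand, and PWP2 were set aside for comparisons with uHL-60. Other genes with copies were not searched for. The choice was made after the data were seen.

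Tests were two-sided edgeR 4.0.16 quasi-likelihood F tests in R 4.3.3 on counts, with TMM scaling, filterByExpr and Benjamini-Hochberg adjustment over all genes tested, called at an adjusted p under 0.05. The 12 dHL-60 libraries were fitted as 6 group means; untreated states and uHL-60 responses had time as a term; responses of the states were compared over 16 libraries. Alternatives were other scalings, no filter, DESeq2 1.42.0, a replicate block, the uHL-60 columns as deposited, a fit of all libraries, the kept symbols alone (added after seeing the data) and leaving out each dHL-60 library. For single uHL-60 libraries, log2 ratios used a prior count of 2 and genes of at least 5 CPM. The scripts were tested on simulated data. The number of libraries limits the precision. The counts of the 2 libraries of each dHL-60 group gave a chi-square of 10.31 to 18.91 per degree of freedom, so no pair was counted as 1 repeated library.

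The members and gene lists were chosen with earlier results of these data known. Named genes were the 2 members per role with the largest change at 10 µg/ml and 24 h, members called against the majority, the 5 largest calls per direction in each comparison, up to 2 genes per direction in each pathway list and MYC. BOP1 and others outside these were named by role.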

Additional observations from a re-analysis of the deposited data

Results flagged for a closer look

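The response at 10 µg/ml was lower at 24 h than at 4 h for 13 of 32 members, by a test of the difference itself (edgeR, adjusted p under 0.05), and higher for 0, against 14% and 19.7% of all genes. The largest differences were -1.14 for DDX21, -0.92 for GAR1, -0.73 for NOLC1, -0.72 for PNO1 and -0.70 for NPM1, on the log2 scale. With each library left out in turn, the calls of DDX21, GAR1, NOLC1 and NCL held, and each of the others was lost at least once. At 1 µg/ml the same test called 1 member, GAR1, at -0.69, against 7.41% of all genes lower, and that call was lost when any of 6 of the 8 libraries was left out. DDX21 rose at 4 h (0.80 ± 0.15), and its estimate of -0.34 ± 0.15 at 24 h did not pass the test.

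The response to LTA at 1 µg/ml at 4 h differed between dHL-60 and uHL-60 for 1 of 30 members, RRP12, at -0.77, against 4.97% of genes lower and 5.64% higher. It rests on 1 uHL-60 library a group and was not called without untreated replicate 1 (-0.61) or LTA replicate 2 (-0.64) of dHL-60.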

How the results depend on the processing

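No called member value changed its direction under any alternative run. Of 172 called values, DESeq2 kept 170, DESeq2 size factors 167, upper-quartile scaling 169 and no filter 166. Of the 21 values that involve uHL-60, the kept symbols alone kept 21 and the columns as deposited 20, and the fit of all 16 libraries kept the 20 values it applies to. Upper-quartile scaling moved the median of all genes by -0.12 and -0.13 for LTA 1 and 10 µg/ml at 4 h, by 0.12 for untreated dHL-60 against uHL-60 and by -0.10 for the response of the states at 4 h. Same-numbered libraries had correlations of deviations from -0.204 to 0.383 over the pairs of groups, so not every pair was over 0.1, while the 3 pairs of 4 h groups were at 0.133, 0.207 and 0.383. The fit with the replicate block kept 151 of 151 called values.

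Upper-quartile scaling gave 13 members lower with LTA 1 µg/ml at 24 h, 0 for its response at 24 h minus 4 h and 2 lower in dHL-60 for the response of the states at 4 h. That last count was 0 with DESeq2 size factors and 0 with the columns as deposited, and DESeq2 called 1 member higher there. With no filter, LTA 10 µg/ml raised 2 members at 4 h, and 1 was higher at 10 than at 1 µg/ml at 24 h. The cause was not tested.

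With each library left out in turn, the members lower ranged from 6 to 11 (LTA 1 µg/ml, 4 h), 4 to 7 (10 µg/ml, 4 h), 0 to 4 (1 µg/ml, 24 h), 21 to 25 (10 µg/ml, 24 h), 0 to 4 (10 against 1 µg/ml, 24 h), 0 to 1 (24 against 4 h untreated, and in LTA 1 µg/ml), 0 to 1 (response 24 minus 4 h at 1 µg/ml), 8 to 11 (at 10 µg/ml), 15 to 21 (dHL-60 against uHL-60) and 0 to 1 (response of the states at 4 h). The members higher ranged from 27 to 28 (24 against 4 h untreated), 23 to 27 (in LTA 1 µg/ml), 11 to 12 (in 10 µg/ml) and 0 to 1 (response of the states at 4 h). Depth limits NOP2 and PWP2, which had at most 42 and 11 counts in a dHL-60 library. An arm left with 1 library was assumed to vary like the other groups.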
